A study of Mus musculus with 106 samples.

Results

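The neuropeptide precursors described here are 10 listed genes, *Penk*, *Pdyn*, *Tac1*, *Vip*, *Sst*, *Npy*, *Cck*, *Cort*, *Crh* and *Pthlh*. They were taken by name and found by Ensembl identifier. All 10 were present among the 55401 mouse genes of the deposited count table, of which 21897 were protein-coding. For each gene the text gives its level by cell type, its enrichment in immunoprecipitated over total RNA, and its difference between Huntington's disease (HD) and control mice.

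The study used RiboTag immunoprecipitation (IP), in which Cre turns on an HA-tagged ribosomal protein in 1 cell type and the tagged ribosomes are pulled down with their mRNA. 45 mice gave 67 IP and 39 total RNA libraries, 106 in all. HD mice carried Hdh Q7/Q200 and controls Hdh Q7/Q7, all on the 129S4 strain, untreated and 9 months old. Tissue was the cerebrum without the olfactory bulb, or the cerebellum, both frozen.

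By the methods the Gad2, PV and vGluT2 mice, controls included, were heterozygous for a Cre driver and for the Rpl22-HA RiboTag allele. The drivers were Gad2-IRES-Cre (GABAergic neurons), PV-IRES-Cre (parvalbumin neurons), vGluT2-IRES-Cre (neurons with the glutamate transporter vGluT2) and an SST line that the methods do not describe. Cre acts for good, so a cell that once expressed the driver stays tagged. Cerebral IP libraries numbered 6 control and 6 HD for Gad2, 6 and 5 for PV, 5 and 4 for SST, and 6 and 6 for vGluT2. Cerebellar IP libraries numbered 6 and 6 for Gad2 and 5 and 6 for vGluT2. Each driver takes in several neuron types of many regions, so a level is an average over them. An IP holds ribosome-bound mRNA and also a background of other cells' RNA.

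Neuropeptide precursors are made in the endoplasmic reticulum, cut by prohormone convertases in dense core vesicles, and released as short peptides that act on G protein-coupled receptors. In the striatum *Penk* marks projection neurons of the indirect pathway, while *Pdyn* and *Tac1* mark those of the direct pathway. In the cortex *Sst* and *Vip* mark separate classes of GABAergic interneurons, and *Cck* is made by many excitatory neurons and by a class of interneurons.

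Levels are in CPM (counts scaled to library size) after normalization over all 106 libraries. The smallest library held 21905221 counts, the median library 35866725.5 and the largest 107753586, which belonged to an HD PV IP that had been re-sequenced. Adjusted p-values are by Benjamini-Hochberg over all genes tested, after edgeR's quasi-likelihood test, and a gene was called at 0.05 or less. 3 HD IP libraries, 1 each of cerebellar Gad2, cerebral PV and cerebral vGluT2, were re-sequenced, and no control was. In those 3 the sequencing run and the genotype go together. The other HD libraries of these IP types were not re-sequenced, and every library was left out in turn.

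Neuronal marker genes fitted the labels, save the gene of the vGluT2 driver. GABAergic markers (*Gad1*, *Gad2*, *Slc32a1*) summed to a mean of 2737 CPM in control cerebral Gad2 IPs, 2565 in PV, 1341 in SST and 81.8 in vGluT2 IPs. By the same test all 3 of these genes were higher in the Gad2, PV and SST IPs than in total RNA and lower in the vGluT2 IPs. All 3 parvalbumin neuron markers were higher in PV IPs, and all 3 somatostatin neuron markers, *Sst* itself among them, in SST IPs. Glutamatergic markers were not absent from the PV and SST IPs, where they summed to means of 951 and 897 CPM. Oligodendrocyte markers summed to 2151 to 3827 CPM in control SST IPs and 1253 to 2015 CPM in control PV IPs. In control cerebral Gad2 IPs they summed to 330.3 to 1302 CPM and in vGluT2 IPs to 259.4 to 556.4 CPM. The part of this background in the contrasts between cell types was not tested. *Slc17a6*, the gene of the vGluT2 driver, had control means of 113.8 CPM in vGluT2, 116.5 in PV, 106.4 in SST and 18.34 in Gad2 IPs. It did not set the vGluT2 IPs apart from PV and SST. *Slc17a7* was highest in vGluT2 IPs, at 2061 CPM against 830.1, 785.1 and 220.5 in PV, SST and Gad2 IPs. In the cerebellum, Purkinje cell markers summed to a mean of 8608 CPM in control Gad2 IPs and granule cell markers to 7014 CPM in control vGluT2 IPs.

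Some libraries stood apart. Control replicate 2 and HD replicate 3 of the PV IPs held 594.5 and 1436 CPM of Purkinje cell markers and 133.1 and 332.9 CPM of granule cell markers, while the other PV IPs reached at most 197 and 25.25 CPM. In control cerebral Gad2 IPs the Purkinje cell markers *Pcp2* and *Car8* reached 72.82 and 102.2 CPM (medians 0.7868 and 11.92). In HD they reached 56.43 and 144 CPM (medians 0.6101 and 8.864), and the Gad2 libraries were left out only singly. Control replicate 5 of the cerebellar vGluT2 IPs held more *Sst*, *Cck*, *Tac1* and *Vip* than its 4 companions, with values given below. Where a result turns on these libraries, it is given without them too or said not to have been tested without them.

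In the cerebrum the 10 precursors split by driver: nearly all were enriched in the Gad2 IPs, the SST IPs were mixed, and most were depleted in the PV and vGluT2 IPs. All 10 were tested in each of these 4 comparisons, which share 18 cerebral total RNA libraries of the Gad2, PV and vGluT2 lines and adjust for genotype. In Gad2 IPs 9 were higher and 1 lower than in total RNA, where 30.9% of all genes tested were higher and 32.7% lower. In PV IPs 2 were higher and 7 lower (all genes 35.7% and 37.5%), in SST IPs 5 and 3 (32.9% and 32.3%), and in vGluT2 IPs 1 and 8 (30% and 33.6%). The median log2 fold change of the members was 1.75, −1.01, 0.81 and −1.60 in that order, beside medians near 0 over all genes.

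**Figure D1:**
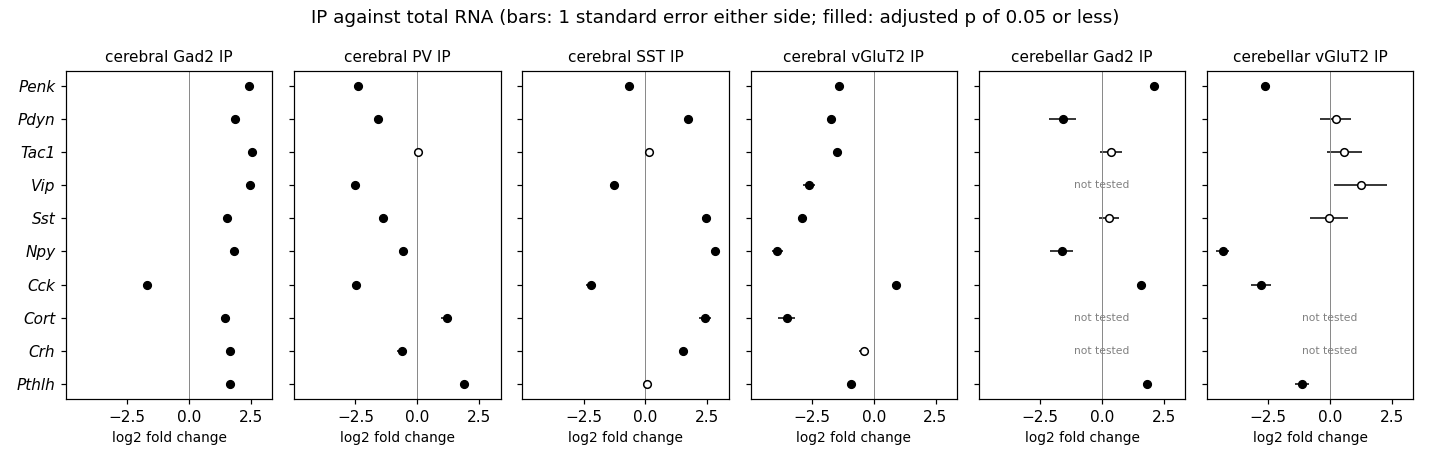
Difference of each precursor between IP and total RNA, as log2 fold change, in the 6 IP types. Bars are 1 standard error either side, and filled points passed the test; *Penk* stood at 2.42 in cerebral Gad2 IPs and −2.39 in PV IPs.

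The striatal opioid and tachykinin precursors were all enriched in Gad2 IPs. *Penk*, the precursor of the enkephalins (ENSMUSG00000045573.9, chromosome 4, 4133531 to 4138819, GRCm38), had a lowest, median and highest level of 1526, 1968 and 2135 CPM in control Gad2 IPs, against 197.4, 326.8 and 609.8 CPM in control cerebral total RNA. The ranges do not overlap, and the IP was higher by a log2 fold change of 2.42 (standard error 0.121, adjusted p = 9.78e-17). In the other control IPs *Penk* was at 198, 197, 190, 146 and 123 CPM in SST, at 103.4, 117.2 and 166.7 CPM in vGluT2 and at 47.05, 55.4 and 75.03 CPM in PV. These lay below the lowest total RNA library, save 1 SST library just above it, and *Penk* was lower than in total RNA by −0.66 in SST, −1.42 in vGluT2 and −2.39 in PV IPs. The order Gad2, SST, vGluT2, PV held at each step, the closest neighbours being vGluT2 and SST (log2 difference −0.52, standard error 0.14, adjusted p = 0.00266 by the same test).

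*Pdyn*, the precursor of the dynorphins (ENSMUSG00000027400.11, chromosome 2, 129686565 to 129699844), was equally high in 2 IPs. Control Gad2 IPs held 167.3, 214.6 and 242.4 CPM (lowest, median, highest) and control SST IPs 159, 201, 245, 254 and 146 CPM, beside 38.25, 63.4 and 96.18 CPM in total RNA. Both IPs lay above all control total RNA libraries, with log2 fold changes of 1.85 and 1.72, and did not differ from each other (adjusted p = 0.998). PV IPs (15.8, 20.17 and 24.78 CPM) and vGluT2 IPs (14.23, 20.19 and 21.41 CPM) lay below total RNA, at log2 fold changes of −1.59 and −1.71, and also did not differ from each other (adjusted p = 0.386).

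*Tac1*, the precursor of substance P (ENSMUSG00000061762.12, chromosome 6, 7554879 to 7565834), was lower in PV (−2.68), SST (−2.52) and vGluT2 IPs (−4.08) than in Gad2 IPs. Its level was 274.8, 328 and 363.5 CPM in control Gad2 IPs and 50.14, 52.51 and 57.67 CPM in total RNA, a log2 fold change of 2.53 (standard error 0.0664). SST IPs (70.1, 58.2, 48.8, 54.2 and 40.4 CPM) and PV IPs (36.72, 51.19 and 57.48 CPM) overlapped total RNA and were not called against it (adjusted p = 0.199 and 0.874), nor against each other (0.482). In vGluT2 IPs *Tac1* was lowest, at 15.47, 18.52 and 23.82 CPM, and below total RNA by −1.49.

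The interneuron peptides *Sst*, *Npy* and *Cort* were highest in SST IPs. *Sst*, the somatostatin precursor (ENSMUSG00000004366.4, chromosome 16, 23889573 to 23890958), was at 1490, 1380, 1500, 1450 and 809 CPM in control SST IPs, against 164.9, 248 and 436.5 CPM in total RNA. All 5 lay above total RNA, replicate 6 lowest, and the log2 fold change was 2.45 (standard error 0.173, adjusted p = 9.32e-12). The SST line's own control total RNA, which is not in this fit, held less *Sst*, 105.7 to 153.8 CPM, and with total RNA of the same line only the log2 fold change of *Sst* in IP against total RNA, cerebral SST, was 3.16. *Sst* was also high in Gad2 IPs (653.6, 767.3 and 875.8 CPM, log2 fold change 1.53), and lower than in total RNA in PV IPs (67.68, 95.73 and 137.4 CPM, −1.40) and vGluT2 IPs (25.73, 33.64 and 45.04 CPM, −2.89). The order SST, Gad2, PV, vGluT2 held at each step, the smallest being SST over Gad2 at 0.83 (adjusted p = 0.00011 by the same test). *Sst* is the gene that names the SST driver, so this enrichment is also a check of the label.

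*Npy*, the neuropeptide Y precursor (ENSMUSG00000029819.6, chromosome 6, 49822710 to 49829507), is known from a subset of somatostatin neurons. It was at 397, 352, 373, 394 and 226 CPM in control SST IPs and 37.48, 52.33 and 100.6 CPM in total RNA, a log2 fold change of 2.82 (standard error 0.174). Gad2 IPs came next at 198.7, 210.5 and 255.6 CPM (1.84 over total RNA), then PV IPs at 22.21, 38.85 and 47.13 CPM (−0.57) and vGluT2 IPs at 2.484, 4.51 and 9.058 CPM (−3.91). Each step of this order passed the test, SST over Gad2 by 0.72 (adjusted p = 0.00993 by the same test) with 1 SST library, replicate 6, within the Gad2 range. *Cort*, the cortistatin precursor (ENSMUSG00000028971.4, chromosome 4, 149125034 to 149126763), was low in all: 12.7, 14.3, 15.8, 16.8 and 9.95 CPM in SST IPs and 1.089, 3.215 and 5.919 CPM in total RNA. It was enriched in SST, Gad2 and PV IPs (2.40, 1.46 and 1.19), the only peptide here apart from *Pthlh* that was higher in PV IPs than in total RNA. Gad2 and PV did not differ in *Cort* (adjusted p = 0.183), and vGluT2 IPs stayed under 0.3634 CPM or at it (−3.53).

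*Vip* and *Crh*, both known from cortical GABAergic interneurons, parted in the SST IPs. *Vip*, the precursor of vasoactive intestinal peptide (ENSMUSG00000019772.5, chromosome 10, 5639218 to 5647617), was at 100.4, 117.3 and 136.3 CPM in Gad2 IPs against 11.52, 18.36 and 23.24 CPM in total RNA (log2 fold change 2.45, standard error 0.126). It was lower than in total RNA in SST IPs (9.93, 4.53, 4.99, 5.68 and 7.57 CPM, −1.27), PV IPs (2.204, 3.189 and 3.796 CPM, −2.50) and vGluT2 IPs (0.321, 3.58 and 3.69 CPM, −2.61), the last 2 not differing (adjusted p = 0.784). *Crh*, the precursor of corticotropin-releasing hormone (ENSMUSG00000049796.4, chromosome 3, 19693401 to 19695396), was alike in Gad2 IPs (13.59, 15.34 and 17.15 CPM) and SST IPs (11.9, 15.2, 13.6, 11.6 and 14.4 CPM), both above total RNA (3.336, 4.542 and 6.728 CPM) by 1.65 and 1.498. These 2 did not differ (adjusted p = 0.543), and PV (1.743, 3.061 and 4.788 CPM, −0.63) and vGluT2 IPs (1.651, 2.457 and 3.093 CPM) did not differ either (log2 difference −0.42, adjusted p = 0.0574; DESeq2 0.0214). *Crh* in vGluT2 IPs was not called against total RNA (adjusted p = 0.123), and in PV IPs it was no longer called with total RNA of the same line only (−0.56, adjusted p = 0.111).

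*Cck* and *Pthlh* had orders of their own. *Cck*, the cholecystokinin precursor (ENSMUSG00000032532.7, chromosome 9, 121489824 to 121495694), was the only member enriched in vGluT2 IPs, at 404.8, 468.9 and 827.7 CPM against 131.5, 289.2 and 463.9 CPM in total RNA. The 2 ranges overlap, and the log2 fold change was 0.89 (standard error 0.143, adjusted p = 2.77e-06). Gad2 IPs (72.87, 88.04 and 119 CPM, −1.70) stood above PV IPs (35.2, 48.02 and 58.59 CPM, −2.48) and SST IPs (75.4, 40.3, 50.7, 39.8 and 30.3 CPM, −2.20), which did not differ (adjusted p = 0.988). *Pthlh*, which encodes parathyroid hormone-related protein (ENSMUSG00000048776.8, chromosome 6, 147252101 to 147264183), was at 9.042, 12.44 and 14.72 CPM in PV IPs and 9.217, 12.08 and 13.45 CPM in Gad2 IPs, against 2.71, 3.613 and 4.7 CPM in total RNA. Both were enriched (1.88 and 1.64) and did not differ from each other (adjusted p = 0.549). SST IPs (3.33, 3.8, 4.58, 3.48 and 4.16 CPM) overlapped total RNA (adjusted p = 0.727), and vGluT2 IPs were lowest (1.339, 1.739 and 2.581 CPM, −0.90), a call lost with the mouse as a block (−0.58, adjusted p = 0.145).

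Counted by cell type contrast among cerebral control IPs, 8 of 10 members differed between PV and Gad2, all lower in PV (55.2% of all genes tested were called). Between SST and Gad2 8 differed, 3 higher and 5 lower in SST (55.4%), and between vGluT2 and Gad2 all 10, with *Cck* alone higher in vGluT2 (32.3%). Between SST and PV 8 differed, 7 of them higher in SST (17.7%). Between vGluT2 and PV 7 differed, *Penk* and *Cck* higher in vGluT2 (60.8%), and between vGluT2 and SST all 10, with *Cck* alone higher in vGluT2 (58.6%). These 6 contrasts come from 1 fit and share their libraries.

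**Figure D2:**
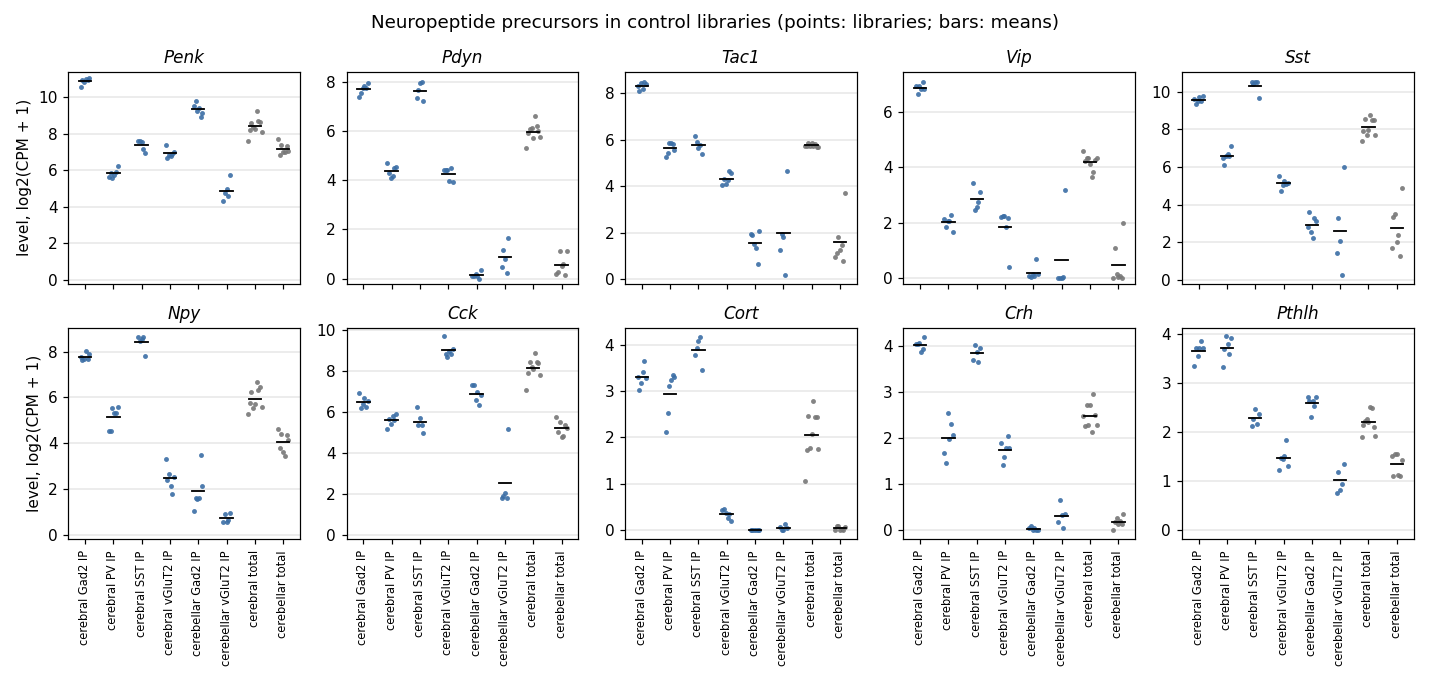
Levels of the 10 precursors in every control library, as log2(CPM + 1), in the 6 IP types and in total RNA of each region. Bars are means of the points; *Penk* in Gad2 IPs had a mean of 1921 CPM.

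Levels of different precursors were compared per length, as CPM per kb of the principal transcript, in control means. In Gad2 IPs *Penk* (1330 CPM per kb) and *Sst* (1070) led, then *Npy* (386) and *Tac1* (262), with *Cort* (13.3), *Crh* (11.5) and *Pthlh* (7.26) last. In SST IPs *Sst* (1840) and *Npy* (615) led, and in vGluT2 IPs *Cck* (669) stood far above *Penk* (85.3), the next. PV IPs had no leading peptide of that size: *Sst* (136), *Npy* (63.4) and *Cck* (60.9) were their highest on this scale. With merged exons as the length some neighbours changed places, such as *Pdyn* and *Cck* in Gad2 IPs.

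In the cerebellum *Penk* led, and several of the other precursors were near 0. In Gad2 IPs, which hold Purkinje cells, Golgi cells and other inhibitory interneurons, 7 members were tested, 3 were higher and 2 lower than in total RNA (all genes 34.7% and 32.6%). *Penk* was at 486.8, 642.9 and 900.1 CPM in control Gad2 IPs against 113.1, 131.4 and 211.2 CPM in control cerebellar total RNA, with no overlap and a log2 fold change of 2.12 (standard error 0.126, adjusted p = 1.39e-14). *Cck* was at 78.99, 116.9 and 159 CPM against 26.66, 35.87 and 52.35 CPM (1.60), also without overlap. *Pthlh*, at 3.979, 5.218 and 5.614 CPM against 1.14, 1.702 and 1.925 CPM, was higher too (1.83). *Npy* was lower in these IPs (1.055, 2.026 and 10.29 CPM against 9.841, 16.4 and 23.31 CPM, −1.64), with control replicate 5 within the range of total RNA. *Pdyn* was near 0 in both and lower in the IP (−1.59, adjusted p = 0.0132 by the same test), and *Tac1* (0.37) and *Sst* were not called (adjusted p = 0.479 and 0.559). *Tac1* was called with total RNA of the same line only (1.05, adjusted p = 0.0162), and without control replicate 4 of the vGluT2 line's total RNA.

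Cerebellar vGluT2 IPs, rich in granule cells, were poor in these peptides. In control replicates 1, 3 and 4 Y-linked transcripts disagreed with those of the same mouse's other libraries. These 3 were left out only singly, here and in the comparisons below. Of 8 members tested against total RNA 0 were higher and 4 lower (all genes 32.3% and 36%). *Penk* was at 18.9, 26.4, 30.2, 23.3 and 53.4 CPM (−2.62 against total RNA) and *Npy* at 0.492, 0.885, 0.463, 0.582 and 0.946 CPM (−4.35). *Cck* was at 2.46, 2.74, 3.21, 2.48 and 34.4 CPM (−2.80, and −3.64 without replicate 5) and *Sst* at 1.67, 8.93, 3.24, 0.214 and 63.5 CPM, the last value of each from replicate 5, which also had 24.3 CPM of *Tac1* and 8 CPM of *Vip*. *Pthlh* was lower as well (−1.16), but not with the mouse as a block (−0.98, adjusted p = 0.116). *Sst* stood at −0.04 (adjusted p = 0.962 by the same test), and from −1.07 to 0.30 on leaving out single libraries. *Tac1* stood at 0.56 (adjusted p = 0.49) and at −0.32 without replicate 5, and *Vip* at 1.23 (adjusted p = 0.313), neither called; *Vip* was at most 0.0306 CPM in the other 4 control IPs and was not tested without replicate 5.

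Set against the cerebellar Gad2 IPs, the control vGluT2 IPs differed in 5 of 8 members (56.4% of all genes were called). *Penk* (−4.46), *Cck* (−3.73, and −5.53 without replicate 5), *Npy* (−2.38) and *Pthlh* (−2.30) were lower, and *Pdyn* was higher (3.01) on levels of at most 2.15 CPM. *Sst* was not called (1.16, adjusted p = 0.269 by the same test) and stood at −1.03 without replicate 5, and *Tac1* (1.56, adjusted p = 0.117) stood at −0.35 without it. *Vip* was at 3.38 (adjusted p = 0.0653), which rested on replicate 5 and was not tested without it. *Cort* and *Crh* were too low to test against total RNA in either cerebellar IP, and *Vip* in the Gad2 IPs.

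In HD, *Penk*, *Vip* and *Crh* had lower levels in cerebral Gad2 IPs, which passed DESeq2's test but not edgeR's in its main fit. Under some alternatives edgeR called *Penk*. All 10 members were tested and all 10 log2 fold changes were negative, with a median of −0.18 (−0.0062 over all genes). By edgeR 0 of 10 were called, where 0.0279% of all genes were called; 3 had an unadjusted p under 0.05, as had 1313 of all 14342 genes, and DESeq2 called those 3 (0.523% of all genes by DESeq2). Fewer cells of a type and less RNA per cell cannot be told apart in these libraries. The share of all genes without overlap between HD and control is not given for any comparison. A lack of overlap below is therefore a description of the levels and not a test.

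*Penk* in Gad2 IPs was at 1526, 1968 and 2135 CPM in controls and 743.7, 1068 and 1442 CPM in HD, means of 1921 ± 218 and 1055 ± 258 (SD, 6 mice each). The highest HD library lay below the lowest control, and the HD mean was 54.9% of control. The log2 fold change was −0.90 (standard error 0.145, adjusted p = 0.0658; DESeq2 adjusted p = 2.04e-05). Without HD replicate 4 the same edgeR test called it (−0.98, adjusted p = 0.0115). It also called *Penk* with the replicate number as a block, and with the level of Y-linked genes as a covariate. *Vip* was at 100.4, 117.3 and 136.3 CPM in controls and 53.5, 70.03 and 87.66 CPM in HD, also without overlap, the HD mean at 59.4% of control. Its log2 fold change was −0.78 (standard error 0.144, adjusted p = 0.099; DESeq2 0.000261). *Crh* was at 13.59, 15.34 and 17.15 CPM in controls and 8.97, 11.32 and 13.64 CPM in HD, so the ranges only touch. It stood at −0.47 (standard error 0.112, adjusted p = 0.265; DESeq2 0.0255). *Pdyn* and *Tac1*, the direct pathway peptides, overlapped almost fully: *Pdyn* at 135.2, 198.1 and 239.2 CPM and *Tac1* at 265, 317.9 and 370.9 CPM in HD.

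The striatal projection neuron markers named here had negative log2 fold changes in these IPs in HD, but edgeR called none. No count over the whole marker list is reported. *Ppp1r1b*, the most abundant, ran from 1951 to 2716 CPM in controls and from 1079 to 2070 CPM in HD, overlapping (−0.58, adjusted p = 0.367 by the same test). *Adora2a* ran from 261.8 to 356.1 CPM in controls and from 148.6 to 255.6 CPM in HD, without overlap (−0.57, adjusted p = 0.265; DESeq2 0.0329). *Drd1* stood at −0.58 (adjusted p = 0.0847; DESeq2 0.000342), *Rgs9* at −0.53, *Gpr6* at −0.44 and *Drd2* at −0.35, none of them called by edgeR. The part of these markers in the level of *Penk* was not tested. Of the other *Vip* neuron markers, *Htr3a* stood at 0.02 and *Calb2* at −0.13 (adjusted p = 0.958 and 0.615).

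**Figure D3:**
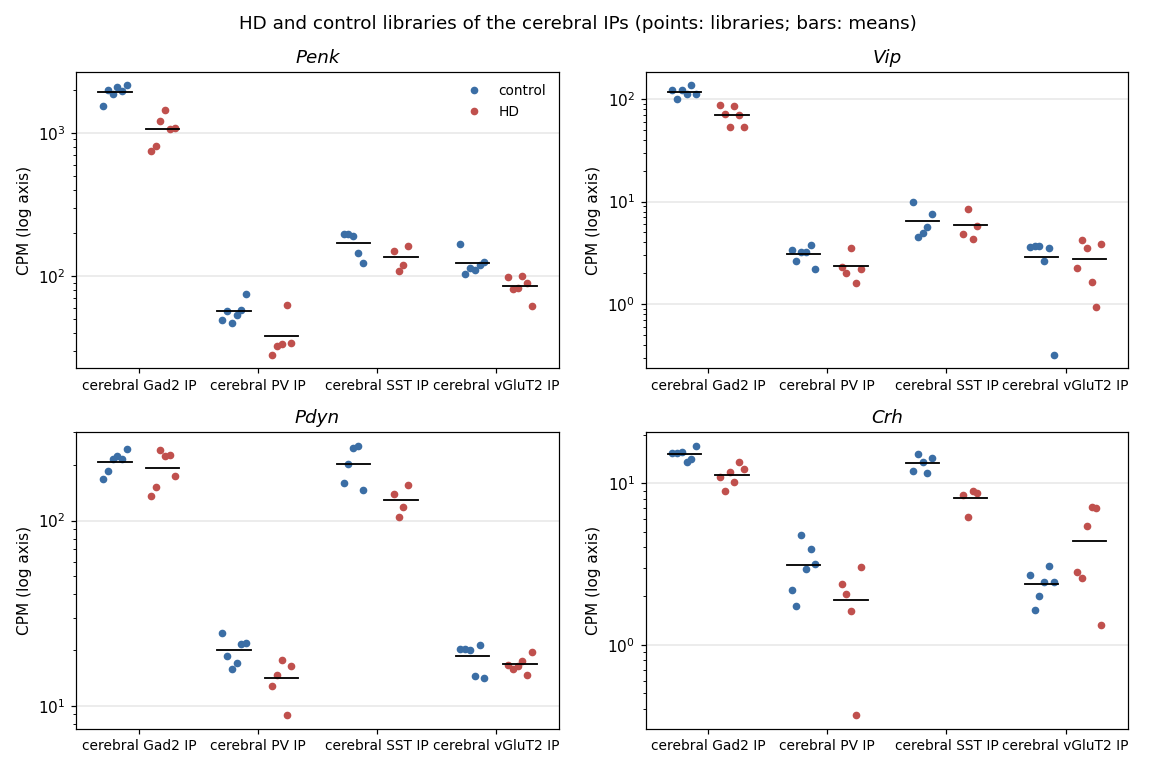
*Penk*, *Vip*, *Pdyn* and *Crh* in control and HD libraries of the 4 cerebral IP types, in CPM on a log axis. Bars are means; *Penk* in Gad2 IPs had means of 1921 CPM in controls and 1055 CPM in HD.

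In PV IPs *Penk* and *Pdyn* had the lowest unadjusted p-values, on low levels. By edgeR 0 of 10 members were called (0.034% of all genes), 2 had an unadjusted p under 0.05 (630 of all 14713 genes), DESeq2 called 0 (0.285% of all genes), and 9 log2 fold changes were negative (median −0.19, all genes 0.0023). *Penk* was at 47.05, 55.4 and 75.03 CPM in controls and at 28.3, 32.6, 33.8, 63.3 and 34.3 CPM in HD, where only replicate 3, the library rich in cerebellar markers, reached the control range. Its log2 fold change was −0.57 (standard error 0.192, adjusted p = 0.854), and −0.82 (adjusted p = 0.213) without that library and control replicate 2. *Pdyn* was at 15.8, 20.17 and 24.78 CPM in controls and 12.8, 14.6, 17.7, 8.93 and 16.5 CPM in HD, overlapping, at −0.52 (standard error 0.17, adjusted p = 0.851) and −0.41 without those 2 libraries. *Crh*, at −0.72 (adjusted p = 1), was at 1.743, 3.061 and 4.788 CPM in controls and 2.38, 2.06, 1.61, 0.367 and 3.05 CPM in HD. The striatal projection neuron marker *Adora2a* ran from 12.65 to 27.64 CPM in control PV IPs and from 7.151 to 13.42 CPM in HD, and *Ppp1r1b* from 42.22 to 96.12 and 29.43 to 99.02 CPM, and their part was not tested.

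In SST IPs neither test called a member between HD and control, and *Sst* itself overlapped between genotypes. By edgeR 0 of 10 were called (0% of all genes, 207 of which had an unadjusted p under 0.05), 3 members had an unadjusted p under 0.05, and DESeq2 called 0 members (0.0136% of all genes). The median log2 fold change was −0.095 with 6 negative (all genes 0.0081). *Crh* was at 11.9, 15.2, 13.6, 11.6 and 14.4 CPM in controls and 8.43, 6.15, 9 and 8.69 CPM in HD, every HD library below every control, the HD mean at 60.5% of control. Its log2 fold change was −0.72 (standard error 0.169, adjusted p = 1; DESeq2 0.0915). *Pthlh* was at 3.33, 3.8, 4.58, 3.48 and 4.16 CPM in controls and 3.21, 1.66, 2.82 and 2.88 CPM in HD, at −0.54 (standard error 0.237, adjusted p = 1). Its groups were apart only by 3.21 against 3.33 CPM, and the share of all genes without overlap here is not given. *Pdyn* was at 159, 201, 245, 254 and 146 CPM in controls and 140, 104, 118 and 156 CPM in HD, overlapping, at −0.63 (standard error 0.198, adjusted p = 1).

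*Sst* in HD SST IPs was at 1150, 718, 966 and 2340 CPM, and *Npy* at 322, 270, 248 and 731 CPM. Replicate 4 was highest in both and lay above all controls, and the other 3 lay below at least 4 of the 5 controls. *Cck*, at 45.2, 57.5, 56.4 and 111 CPM in HD, had its highest value in the same replicate and stood at 0.52 (adjusted p = 1). Of the striatal projection neuron markers, *Ppp1r1b* ran from 71.53 to 147.4 CPM in controls and from 63.41 to 134.8 CPM in HD, and *Adora2a* from 26.46 to 39.19 and 14.81 to 27.68 CPM, and their part was not tested. The HD mice and 2 of 5 controls had 1 type of mouse identifier and the other 3 controls another, so this comparison is partly confounded with the identifier series. With only mice of the shared series, *Crh* stood at −0.73 (adjusted p = 1).

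In cerebral vGluT2 IPs *Penk* was lower and *Crh* higher in HD before adjustment. By edgeR 0 of 10 were called (0.00697% of all genes), 2 had an unadjusted p under 0.05 (1045 of all 14354 genes), DESeq2 called 0 (0.174% of all genes), and 6 log2 fold changes were positive (median 0.093, all genes −0.018). *Penk* was at 103.4, 117.2 and 166.7 CPM in controls and 61.96, 86.4 and 100.2 CPM in HD, with no overlap and the HD mean at 69.5% of control. Its log2 fold change was −0.53 (standard error 0.133, adjusted p = 0.567; DESeq2 0.0501). *Crh* was at 1.651, 2.457 and 3.093 CPM in controls and 1.333, 4.143 and 7.086 CPM in HD, where 3 of 6 HD libraries lay above all controls and the re-sequenced one was lowest. It stood at 0.87 (standard error 0.373, adjusted p = 0.677). *Npy*, at −0.57 (adjusted p = 0.69), was at 2.484, 4.51 and 9.058 CPM in controls and 1.744, 2.512 and 6.472 CPM in HD. *Ppp1r1b* ran from 134 to 241 CPM in controls and from 101.1 to 134.7 CPM in HD, and the part of striatal projection neuron markers in *Penk* was not tested.

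Whether the HD effect differed between cerebral cell types was tested as a difference from the Gad2 effect. By edgeR 0 of 10 members were called for PV, for SST or for vGluT2 (0% of all genes in each), and DESeq2 called 0. At an unadjusted p under 0.05 there were 0, 3 and 1 members, and 364, 364 and 348 of all genes. For vGluT2 against Gad2 the difference in effect was 1.29 for *Crh* (standard error 0.421, adjusted p = 1). For SST against Gad2 the difference was 0.52 for *Penk* (standard error 0.251, adjusted p = 1) and −0.52 for *Pdyn* (standard error 0.237, adjusted p = 1), and 0.60 for *Cck* (standard error 0.285, adjusted p = 1). *Vip* stood at 0.59 for SST and 0.64 for vGluT2 against Gad2 (adjusted p = 1 for both). These fits share the Gad2 libraries.

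In the cerebellum no member was called between HD and control IPs. In Gad2 IPs 6 members were tested, edgeR called 0 (0.0142% of all genes), 0 had an unadjusted p under 0.05 (324 of all 14098 genes), DESeq2 called 0 (0.156% of all genes), and all 6 log2 fold changes were positive (median 0.11, all genes 0.0037). *Penk*, the leading precursor there, was at 486.8, 642.9 and 900.1 CPM in controls and 552.2, 668.5 and 1083 CPM in HD, overlapping. *Npy* stood at 1.53 (adjusted p = 1) and *Sst* at 0.71 (adjusted p = 1), each led by a few HD libraries: *Npy* was at 1.255, 1.852 and 33.88 CPM and *Sst* at 4.83, 9.92 and 25.2 CPM in HD. In vGluT2 IPs 9 were tested, edgeR called 0 (2.11% of all genes), 2 had an unadjusted p under 0.05 (2090 of all 13487 genes), DESeq2 called 0 (4.92% of all genes), and 7 were negative (median −1.10, all genes −0.011).

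The 2 were *Npy*, at 0.492, 0.885, 0.463, 0.582 and 0.946 CPM in controls and 0.489, 1.225 and 2.558 CPM in HD (0.93, adjusted p = 0.302 by the same test), and *Pthlh*, at 0.122, 0.413 and 1.256 CPM in HD and 0.684, 1.28, 0.761, 0.919 and 1.53 CPM in controls (−1.06, adjusted p = 0.321). Control replicates 1, 3 and 4, whose Y-linked transcripts disagreed with other libraries of their mice, were left out only singly. The largest differences rested on control replicate 5. *Sst* stood at −2.12 (adjusted p = 0.47) with it and 0.11 without it, and *Cck* at −1.10 (adjusted p = 0.495) and 0.71. *Tac1* stood at −2.52 (adjusted p = 0.342) with it and −0.58 without it, and *Vip*, at −3.45 (adjusted p = 0.359), was not tested without it. *Pdyn* was at −1.64 (adjusted p = 0.436), with 0.383, 1.26, 0.761, 0.184 and 2.15 CPM in controls. Granule cell markers were lower in HD in these IPs, 2 of 3 called, with a sum of 5358 to 7729 CPM in controls and 3503 to 4783 CPM in HD, and their part in the peptide values was not tested.

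In total RNA of the cerebrum *Penk* again had the clearest difference. Of 10 members tested edgeR called 0 (0.141% of all genes), 2 had an unadjusted p under 0.05 (984 of all 14871 genes), DESeq2 called 1, *Penk* (0.8% of all genes by DESeq2), and 9 log2 fold changes were negative (median −0.23, all genes 0.021). *Penk* was at 197.4, 326.8 and 609.8 CPM in 9 control libraries and 114.1, 173.9 and 298.1 CPM in 9 HD libraries, overlapping, the HD mean at 53.9% of control. Its log2 fold change, adjusted for the Cre line, was −0.84 (standard error 0.164, adjusted p = 0.051; DESeq2 0.000769). The same edgeR test called it with SST total RNA added (−0.80, adjusted p = 0.00739), without the filter on low counts (−0.85, adjusted p = 0.0481), and without control replicate 1 of the Gad2 line (−0.91), HD replicate 3 of the Gad2 line (−0.94) or HD replicate 1 of the PV line (−0.91). *Ppp1r1b* ran from 258.5 to 594.3 CPM in control and 148.4 to 486.1 CPM in HD libraries of the Gad2 line, from 402.1 to 840.3 and 299.9 to 519 CPM in the PV line, and from 453.6 to 641.9 and 214.7 to 326.2 CPM in the vGluT2 line. *Adora2a* stood at −0.87 (adjusted p = 0.052 by the same test; DESeq2 0.000657), and the part of these striatal projection neuron markers in *Penk* was not tested. In the SST line's total RNA *Crh* was at 8.01, 6.57, 4.68 and 5.26 CPM in controls and 3.52, 3.23 and 4.18 CPM in HD, without overlap. Most of these libraries are of mice that also gave SST IPs, so this is not an independent result. The same partial confounding with the identifier series holds. Over the 3 fitted lines *Crh* overlapped and was not called (−0.35, adjusted p = 0.789 by the same test).

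In cerebellar total RNA edgeR called 0 of 8 members where 24.5% of all genes were called; 2 members had an unadjusted p under 0.05, as had 6423 of all 14477 genes, and DESeq2 called 0 members (34.4% of all genes). The median log2 fold change was −0.45 with 5 negative (all genes −0.0094). *Vip* was at 0, 0.0406 and 2.966 CPM in controls and 0, 0 and 0.279 CPM in HD (−3.54, standard error 1.34, adjusted p = 0.0614 by the same test), and was called without control replicate 1 of the Gad2 line (−3.67, adjusted p = 0.0404). *Tac1* was at 0.7225, 1.381 and 11.99 CPM in controls and 0.1609, 0.584 and 2.474 CPM in HD (−1.63, standard error 0.655, adjusted p = 0.0731). Control replicate 4 of the vGluT2 line held the highest *Tac1*, *Vip* and *Sst*, and without it *Tac1* stood at −0.70 and *Sst* at 0.13 in place of −0.71. *Vip* was at most 0.0406 CPM in the other controls of that line, and was not tested without replicate 4. The fit takes the 2 lines together, and they did not go the same way in all members. In the vGluT2 line the HD means of *Penk* and *Cck* were 137% and 163% of control, without overlap, and in the Gad2 line 90.6% and 82.6%, overlapping. *Cck* was apart only by 40.06 against 40.6 CPM. Genes outside the members were apart in the vGluT2 line too, such as *Slc17a7* (432.4 to 742.1 CPM in controls, 1229 to 1387 CPM in HD). The share of all genes without overlap there is not given, and the difference between lines was not tested. *Pdyn*, at most 1.177 CPM in controls and 1.024 CPM in HD, stood at −0.94 (adjusted p = 0.327).

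The machinery that processes precursors was present in every cell type, and between HD and control edgeR called members of the list in cerebellar total RNA, where 24.5% of all genes were called. The list held 10 genes (convertases *Pcsk1* and *Pcsk2*, their partners *Pcsk1n* and *Scg5*, carboxypeptidase *Cpe*, amidating enzyme *Pam*, and granins *Chga*, *Chgb*, *Scg2* and *Scg3*), all tested in each comparison. Of all genes 30.9% were higher and 32.7% lower than in total RNA in cerebral Gad2 IPs, 35.7% and 37.5% in PV, 32.9% and 32.3% in SST and 30% and 33.6% in vGluT2 IPs, and in the cerebellum 34.7% and 32.6% in Gad2 and 32.3% and 36% in vGluT2 IPs. Of the list, against total RNA 5 were higher and 2 lower in cerebral Gad2 IPs (*Scg2* 1.34, *Chga* 0.78), 6 and 3 in PV (*Chgb* 1.62), 5 and 1 in SST (*Chgb* 0.98, *Pcsk1* 0.75) and 7 and 1 in vGluT2 (*Chgb* 1.998, *Pcsk1* 1.13). In the cerebellum 6 were higher and 1 lower in Gad2 IPs (*Pcsk1* 1.73, *Pam* 1.31) and 6 and 2 in vGluT2 IPs (*Chgb* 1.89, *Pam* −1.42). *Chgb* was the most enriched gene of the list in the PV, SST and both vGluT2 IPs. Between HD and control edgeR called 0 of 10 in all 6 IPs and in cerebral total RNA, with 0, 0, 0, 2, 1, 2 and 0 at an unadjusted p under 0.05, and DESeq2 called only 1, *Scg2* in cerebellar vGluT2 IPs (−0.48), where it called 4.92% of all genes. The numbers of all genes at an unadjusted p under 0.05 are given above for each comparison, and hold for the next lists too. In cerebellar total RNA 3 of 10 rose (*Scg5* 0.64, *Chga* 0.57, *Pcsk2* 0.28) and 2 fell (*Pcsk1* −0.74, *Scg3* −0.46). Group means of each of these differed more in the vGluT2 line. *Chga* had means of 136.6 CPM in controls and 253.4 CPM in HD there, and 148.2 and 183.5 CPM in the Gad2 line. The difference between lines was not tested. On leaving out single libraries 96 to 7408 of all genes were called in this fit.

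The list of receptors and binding protein held 21 genes, and its counts in IPs against total RNA are to be set against the same shares of all genes. Against total RNA 8 of 21 were higher and 8 lower in cerebral Gad2 IPs, led by *Crhbp* (1.73), which binds corticotropin-releasing hormone, *Sstr5* (1.61) and *Oprk1* (1.39), the dynorphin receptor. In PV IPs 3 were higher and 9 lower, the 3 being *Crhbp* (1.79), *Cckar* (1.49) and *Oprd1* (1.25), the last a receptor for enkephalins. In SST IPs 7 were higher and 5 lower, led by *Crhbp* (2.84), and in vGluT2 IPs 6 and 8, with *Sstr3* (0.85) highest and *Crhbp* (−2.68) lowest. In cerebellar Gad2 IPs 2 of 16 tested were higher (*Vipr2* 1.68, *Oprk1* 1.59) and 8 lower, and in cerebellar vGluT2 IPs 2 of 15 were higher (*Crhr1* 0.58, *Sstr3* 0.32) and 4 lower. In HD edgeR called 0 in the 6 IPs and cerebral total RNA, with 2, 0, 0, 4, 3, 1 and 2 at an unadjusted p under 0.05 and 0 by DESeq2. In cerebellar total RNA 1 of 15 rose (*Sstr3* 0.37) and 1 fell (*Vipr1* −0.60), where 24.5% of all genes were called.

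The list of other precursors held 16 genes, and its counts in IPs against total RNA are to be set against those shares as well. In cerebral Gad2 IPs 6 of 16 were higher and 7 lower than in total RNA: *Pnoc* (1.79) and *Tac2* (1.39) were highest, and the hypothalamic precursors *Hcrt* (−4.12) and *Oxt* (−3.98) lowest. In PV IPs 0 were higher and 13 lower, *Tac2* by −3.64. In SST IPs 4 were higher and 11 lower, with *Agrp* (1.33) and *Pnoc* (0.75) highest, and in vGluT2 IPs 4 of 15 were higher, led by *Nmb* (1.02) and *Adcyap1* (0.87), and 3 lower. In cerebellar Gad2 IPs 3 of 8 were higher (*Pnoc* 2.002, *Vgf* 1.60, *Adcyap1* 1.38) and 2 lower, and in cerebellar vGluT2 IPs 1 (*Grp* 0.88) and 3.

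In HD edgeR called 0 other precursors in the 6 IPs, with 2, 1, 0, 2, 2 and 3 at an unadjusted p under 0.05, and DESeq2 called 1, *Grp* in cerebellar vGluT2 IPs (−1.45), where it called 4.92% of all genes. In cerebral total RNA 1 of 16 fell (0.141% of all genes were called): *Avp*, the vasopressin precursor, was at 14.58, 17.45 and 32.71 CPM in control and 3.238, 9.815 and 18.51 CPM in HD libraries of the Gad2 line (log2 fold change over 3 lines −2.23, standard error 0.425, adjusted p = 0.0495 by the same test). In the PV line it was at 7.847, 14.17 and 14.45 CPM in controls and 0.7604, 0.9944 and 3.182 CPM in HD, and in the vGluT2 line at 23.68, 25.12 and 34.04 CPM and 1.05, 3.56 and 7.174 CPM. Of these 3 lines control and HD overlap in the Gad2 line alone; in the SST line, outside the fit, *Avp* ran from 6.306 to 26.15 CPM in control and from 3.176 to 18.08 CPM in HD total RNA, overlapping. The other 3 hypothalamic precursors, *Oxt* (−0.86), *Pmch* (−0.28) and *Hcrt* (−0.11), were not called, and the sum of the 4 ran from 28.5 to 68.55 CPM in control and 10.91 to 25.29 CPM in HD libraries of the PV line, from 62.22 to 80.41 and 51.27 to 97.63 CPM in the Gad2 line, and from 59.74 to 120.1 and 17.22 to 74.59 CPM in the vGluT2 line, and its part was not tested. In cerebellar total RNA edgeR called 0 of 8 (24.5% of all genes), with 1 at an unadjusted p under 0.05 and 0 by DESeq2.

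The genes whose levels followed each precursor most closely were sought over 34 control IP libraries among 14571 genes, by Pearson correlation of log2(CPM + 1). The libraries share driver and region, which set most of the spread. *Penk* was most like *Ppp1r1b* (r = 0.957) and *Rgs10* (0.938), and *Tac1* most like *Drd2* (0.983) and *Asic4* (0.972). *Pdyn* and *Crh* were each other's closest gene (0.982), followed by *Elfn1* (0.971) for *Pdyn* and *Rbp4* (0.957) for *Crh*. *Sst* was most like *Magel2* (0.969) and *Rxfp3* (0.96), *Npy* like *Npas1* and *Cort* (both 0.953), and *Cort* like *Lhx6* (0.978) and *Crhbp* (0.974). *Vip* was most like *Cd4* (0.971), *Cck* like *Ociad2* (0.974) and *Pthlh* like *Cyp2s1* (0.933).

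Several neuropeptide genes are known for a cyclic AMP response element (CRE) near their start, so RefSeq promoters on GRCm38.p6, 250 bases before to 50 after the start, were searched on both strands. Of 10 members 8 had an entry, and *Penk* and *Crh* had none. The full palindrome stood in 1 member, *Sst*, and in 1.79% of 32851 promoters, and a known shorter variant in 3 members and in 2.12% of promoters. The matches are shown because the first lies 48 bases before the RefSeq start of *Sst*, within the wider GENCODE bounds of the gene given above, the highest precursor in SST IPs; capitals mark the motif, and a match is not by itself a site in use. The places are chr16:23890874-23890903 for *Sst*, chr9:121495725-121495754 for *Cck* and chr4:149126765-149126794 for *Cort*, all on the minus strand, and chr6:7554851-7554880 on the plus strand for *Tac1*.
Sst: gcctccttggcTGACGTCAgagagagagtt
Cck: tcctgctggacTGCGTCAgcactgggtaaa
Cort: gctccggcttgTGCGTCAccgcgtgagtgt
Tac1: ttccctaaaatTGCGTCAtttcgaacacaa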

How the data were processed

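The authors aligned paired reads with STAR and deposited estimated counts per gene from Salmon, which were rounded here (8.57% were not whole); the build GRCm38.p6 is that of the submitters' processing notes. Gene types, positions and lengths came from GENCODE M21. Counts of the 92 ERCC spike-ins, up to 4.45% of a library, were set aside. No replicates were near copies of each other, and the least chi-square between 2 of them, over its degrees of freedom, was 6.54.

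Tests used edgeR 4.0.16 in R 4.3.3, with TMM, on protein-coding genes whose mean count was over 10 in the libraries compared. HD against control was fitted within each IP type, total RNA with the Cre line as a covariate, and IP against total RNA with genotype as a covariate; cell types and their HD effects were fitted over the 4 cerebral IPs together. A standard error is the absolute log2 fold change over the root of F. The fits were tested on simulated data before use.

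The 10 members and the lists were chosen with earlier results of these data known. Besides members, the genes named were those of lists fixed beforehand (processing, receptors, other precursors, cell type markers), called ones or up to 4 of the largest per comparison, and the closest genes by correlation. Members not called are named with a difference mainly where it was at least 0.5 or DESeq2 called it.

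Alternatives were DESeq2 1.42.0, its size factors in edgeR, no filter on low counts, leaving out each library, the replicate number or the mouse as a block, total RNA of the same line only, SST total RNA added, and SST mice of 1 identifier series. PV IPs without the 2 libraries rich in cerebellar markers, and the level of 4 Y-linked genes as a covariate, were chosen after seeing the data.

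Of 36 mice with several libraries, 3 control mice of the vGluT2 line had a cerebellar IP whose Y-linked transcripts disagreed with their other libraries. These IPs are control replicates 1, 3 and 4, and which label is wrong was not settled. This bears on the fits with the mouse as a block. It also bears on every comparison that uses the control cerebellar vGluT2 IPs, which were left out only singly, or the other libraries of these mice. At these depths members at or below 1 CPM have few counts, so they were measured with less precision. The libraries were made with a stranded kit, and the strand setting of the counting is not stated. The 5′ end of *Penk* is overlapped by a gene on the other strand. Counts and sums over the striatal projection neuron markers as a list are not reported here.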

Additional observations from a re-analysis of the deposited data

Results flagged for a closer look

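Some values stood apart from the rest of their group by a Dixon-type ratio, in 20 of 134 pairs of member and group. The cut-offs would give about 1 in 20 for normally distributed values. Levels in CPM are skewed and the members share libraries, so the 20 cannot be set against that rate. In control replicate 5 of the cerebellar vGluT2 IPs *Tac1* was at 24.3 CPM (others 0.123 to 2.85), *Vip* at 8 (0 to 0.0306), *Sst* at 63.5 (0.214 to 8.93) and *Cck* at 34.4 (2.46 to 3.21). In control replicate 4 of the vGluT2 line's cerebellar total RNA *Tac1* was at 12 CPM, *Vip* at 2.97 and *Sst* at 28.9, and in control replicate 3 *Penk* was at 158, above the other 3. In HD replicate 5 of the cerebellar vGluT2 IPs *Sst* was at 17.8 CPM and *Pthlh* at 1.26.

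In the control SST IPs replicate 6 had *Sst* at 809 CPM (others 1380 to 1500) and *Npy* at 226 (352 to 397), and HD replicate 4 had *Npy* at 731 (248 to 322). In SST total RNA control replicate 4 had *Pdyn* at 49.8 CPM (69.6 to 71.9). In the cerebral vGluT2 IPs control replicate 1 had *Penk* at 167 CPM (103 to 126) and *Cck* at 828 (405 to 525), and control replicate 6 had *Vip* at 0.321 (2.62 to 3.69). In the PV IPs HD replicate 3 had *Penk* at 63.3 CPM (28.3 to 34.3) and *Pthlh* at 6.26 (12.4 to 12.8). In the cerebellar Gad2 IPs control replicate 5 had *Npy* at 10.3 CPM (1.05 to 3.44).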

How the results depend on the processing

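Every alternative named in the methods was run. Members called between HD and control in cerebral Gad2 IPs were 0, and 3 by DESeq2, 1 (*Penk*, −1.04, adjusted p = 0.00352) with the level of Y-linked genes as a covariate, and 0 to 1 on leaving out single libraries. The labels tie replicate numbers to no litter or batch, but in cerebral Gad2 IPs each number joins a control and an HD mouse with adjacent identifiers. In no IP type did every sample correlate best with its own number (r from −0.435 to 0.624 over all genes, after group means were taken off). For numbers 1 to 6 of the cerebral Gad2 IPs r was 0.624, 0.577, −0.425, 0.587, −0.159 and 0.586. For numbers 1 to 5 of the cerebellar Gad2 IPs it was 0.562, −0.232, 0.572, 0.492 and 0.0774. The main fit does not use the replicate number. With that number as a block 1 member was called in Gad2 IPs (*Penk*, −0.92, adjusted p = 0.0232), and the block changed no other member's call. In cerebral total RNA 0 became 1 by DESeq2, with SST total RNA added, and without the filter, and 0 to 1 on leaving out libraries. In cerebellar total RNA 0 became 0 to 1 on leaving out libraries.

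On leaving out single libraries *Penk* in Gad2 IPs ran from −0.98 to −0.79 (adjusted p 0.0115 to 0.25), *Vip* from −0.83 to −0.70 and *Crh* from −0.52 to −0.39, and *Penk* in cerebral total RNA from −0.94 to −0.76 (adjusted p 0.0153 to 0.164). Among effects that were called or at least 0.5 in size, those that changed sign were of cerebellar libraries. Smaller ones changed sign in the cerebrum too, such as *Sst* (−0.46 to 0.16) and *Npy* (−0.29 to 0.33) in HD SST IPs. In HD cerebellar vGluT2 IPs *Sst* ran from −4.12 to 0.11 and *Cck* from −1.46 to 0.71, and *Crh* (0.57) stood at −0.51 with the Y-linked covariate. In HD cerebellar total RNA *Sst* ran from −1.11 to 0.13. In vGluT2 IPs against total RNA *Tac1* ran from −0.32 to 1.09, and with the mouse as a block stood at −0.0258. In vGluT2 against Gad2 IPs *Sst* ran from −1.03 to 1.46 and *Tac1* from −0.35 to 1.86 (adjusted p = 0.0342 at the highest).

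Of calls against total RNA, *Crh* in PV IPs was lost with total RNA of the same line (−0.56, adjusted p = 0.111), and *Pthlh* with the mouse as a block in cerebral (−0.58, adjusted p = 0.145) and cerebellar vGluT2 IPs (−0.98, adjusted p = 0.116). In cerebellar Gad2 IPs 5 members called became 4 with the mouse as a block and 7 without the filter, and between cerebellar vGluT2 and Gad2 IPs 5 became 6 without it. In cerebellar Gad2 IPs the count stayed at 5 with total RNA of the same line although *Tac1* was gained, so another member was no longer called. Calls were gained for *Tac1* in cerebellar Gad2 IPs with total RNA of the same line (1.05, adjusted p = 0.0162) or without control replicate 4 of the vGluT2 line's total RNA (0.91, adjusted p = 0.0171), and for *Crh* in cerebral vGluT2 IPs without HD replicate 4 (−0.52) or 5 (−0.51). Between vGluT2 and PV IPs *Crh* was called with DESeq2 (−0.48), with its size factors (−0.48), and on leaving out 6 single libraries (−0.54 to −0.27 over all). Between cerebellar vGluT2 and Gad2 IPs *Vip* was called without control Gad2 replicate 5 (4.36) or vGluT2 replicates 1, 2 or 3 (3.67, 3.67 and 3.70). The cause of these differences was not tested.

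All genes called between HD and control went from 4 to 75 (Gad2), 5 to 42 (PV), 0 to 2 (SST), 1 to 25 (vGluT2), 2 to 22 (cerebellar Gad2), 285 to 663 (cerebellar vGluT2) and 21 to 119 (cerebral total RNA) by DESeq2. With the replicate block they were 9, 0 and 0 in the Gad2, PV and cerebellar Gad2 IPs and 109 in cerebellar vGluT2 IPs. Leaving out single libraries gave 3 to 12, 0 to 4, 0 to 1, 0 to 1, 0 to 3, 149 to 255, 4 to 43 and, for the 3544 of cerebellar total RNA, 96 to 7408.

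Limits are the small groups, drivers that pool neuron types and regions, the absent methods of the SST line, re-sequenced HD libraries, and cerebral total RNA taken over lines. The mouse labels of 3 control cerebellar vGluT2 IPs are a further limit. Depth limited *Cort* and *Crh* in the cerebellum, *Cort* in cerebral vGluT2 IPs, and most members in cerebellar vGluT2 IPs, to few counts. Peptides were not measured.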
